A study of Mus musculus with 6 samples.

Results

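The genes described here encode the neurofilament proteins and the proteins that organise microtubules and growth cones in axons. They are the 10 rows of the count table whose symbol is Nefl, Nefm, Nefh, Ina, Prph, Map1b, Mapt, Gap43, Basp1 or Stmn2, out of 54532 genes in the table. All 10 were among the 17099 genes that passed the filter on low counts and were tested. The RNA came from samples labelled sciatic nerve, taken at postnatal day 3 (P3) from 3 Control (WT) mice and 3 Dok6 mutant mice, with 1 library per mouse. Dok6 fl/fl and EIIA-cre lines were bred to obtain the mutants, and as this Cre is active from the start of embryonic life, the deletion is not limited to one cell type. Controls are described as littermates of the mutants, with no litter given for any mouse. The design text of the series asks whether genes linked to myelination change in the mutant nerve. No drug or other agent is named for either group.

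An axon holds a lengthwise array of intermediate filaments and microtubules. Neurofilaments are built from the light (Nefl), medium (Nefm) and heavy (Nefh) subunits, joined by alpha-internexin (Ina) mainly in central neurons and by peripherin (Prph) mainly in neurons that send axons into peripheral nerves. MAP1B (Map1b) and tau (Mapt) bind axonal microtubules, stathmin-2 (Stmn2) binds tubulin and makes microtubules dynamic, and GAP43 and BASP1 are membrane-bound proteins of the growing axon tip. Most messenger RNA for these proteins lies in the neuron's cell body, and a smaller pool is carried into the axon.

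The libraries held between 17699904 and 18678170 counts. Levels are given as CPM, the counts scaled to a library of 1 M counts, after scaling by the trimmed mean of M-values (TMM), and 3 counts, taken as the smallest detectable level, corresponded to between 0.156 and 0.172 CPM, a limit that covers counting error only. Dok6 was at 17.8, 11.9 and 17.5 CPM in controls 1, 2 and 3 and at 7.26, 5.78 and 7.15 CPM in the mutants, so the genotypes did not overlap (log2 fold change -1.23, standard error 0.20, adjusted p = 0.0118). The tissue label was compared with marker genes. The 10 Schwann cell genes together gave only 105 to 162 CPM in the control libraries, with Prx, periaxin of myelinating Schwann cells, at 10.3, 5.45 and 3.83 CPM, whereas 9 genes of spinal interneurons gave 1271 to 1454 CPM and 8 astrocyte genes gave 2700 to 3254 CPM. Transcripts of neuron cell bodies and of central glia were thus present in libraries labelled as nerve, and the Schwann cell total was small in the controls. In such bulk RNA, fewer cells of a type and less RNA per cell cannot be told apart.

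One of the 10 genes passed the test. Prph rose 2.56-fold in the Dok6 mutants, with every mutant library above every control library. The other 9 did not pass, and DESeq2 in place of edgeR called 2 of them, Gap43 and Basp1, lower. Over all genes, DESeq2 called 8.95% lower and 10.6% higher. Gap43 and Basp1 were lower in each mutant than in each control by a log2 fold change of -0.38 and -0.40, and their adjusted p-values of 0.0687 and 0.0507 missed the threshold of 0.05. A gene is called changed here when the p-value of edgeR's quasi-likelihood test, after Benjamini-Hochberg adjustment across the whole set of tested genes, is under 0.05, and with this rule 8.62% of all genes were higher and 6.01% lower in the mutants. The rate of 1 higher and 0 lower among 10 genes is close to those shares. None passed the stricter call of the study, which also asks for an absolute log2 fold change above 2 and which 1.08% of all genes met as increases.

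**Figure D1:**
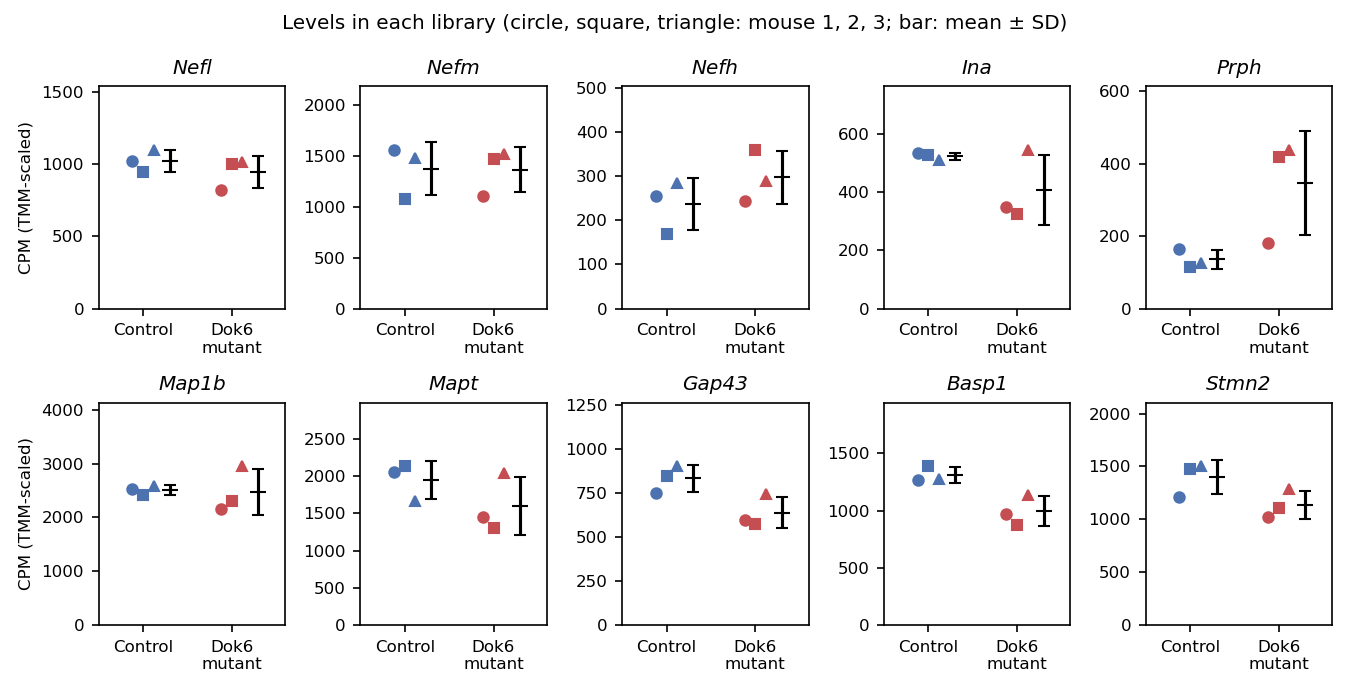
Level of each of the 10 genes in CPM (vertical axes, linear from 0) in the 3 Control (blue) and 3 Dok6 mutant (red) libraries, with the mean and SD of each group in black. Prph in mutant mice 2 and 3 stands at 418.5 and 439 CPM, and the mutant points of Gap43 and Basp1 lie below all control points.

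The 5 filament genes share a rod domain, and a count per gene rests on reads that differ between them. The stretch that closes the rod is among the most alike parts of the family. Its 30 coding bases were read from the GENCODE M21 transcripts and are shown because they let the reader see how far apart the genes are where they are closest. Capitals mark bases that differ from Nefl.
Nefl: gcttacagaaaactcttggaaggcgaagag
Nefm: gcGtacagGaaactcCtAgaGggGgaagag
Nefh: gcttacagaaaGctcCtggaaggcgaagag
Ina: gcttacagGaaGctcCtggaaggTgaagag
Prph: AcCtacagGaaGctACtggaaggGgaGgag
Relative to Nefl, this stretch differed at 2 bases in Nefh, 4 in Ina, 6 in Nefm and 8 in Prph. The coding sequences ran to 543 codons in Nefl, 848 in Nefm, 1090 in Nefh, 501 in Ina and 507 in Prph. No pair of these genes matched at 95% identity or more over 200 bases, apart from Nefl and Nefm, whose match is a shared stretch of the genome. The annotated transcript Nefm-202, on the opposite strand, has a last exon that overlaps Nefl over 1108 bases, which is 32.8% of the exonic bases of Nefl and 19.2% of those of Nefm. The main transcript, Nefm-201, shares none. Ina shares 456 exonic bases, 14.1% of its own, with Nt5c2 on the other strand. The use of strand in the counting is not given in the sources used here, so the counts of Nefl, Nefm and Ina carry this uncertainty. The other 7 genes overlapped no annotated gene.

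Prph encodes peripherin and lies on the plus strand of chromosome 15 of GRCm38 from 99055174 to 99058978, with 8 exons in its main transcript. Its level was 166, 116 and 125 CPM in the controls and 182, 418.5 and 439 CPM in mutant mice 1, 2 and 3, that is 135.5 ± 26.5 against 347 ± 143 CPM (SD, n = 3 mice each). Mutant mouse 1 stood just above control mouse 1, and the other 2 mutants were far above every control. The highest mutant was 2.41-fold above the lowest, against 1.43-fold in the controls. The log2 fold change was 1.36 with a standard error (SE) of 0.30 and a 95% confidence interval from 0.67 to 2.04 (edgeR, adjusted p = 0.0248). The call depended on single libraries. The log2 fold change was 1.20 without mutant mouse 2 (adjusted p = 0.0692), 1.25 without control mouse 2 (adjusted p = 0.112) and 1.30 without control mouse 3 (adjusted p = 0.0651). Over all genes, these fits called 3.16%, 0.318% and 5.72% higher, fewer than the 8.62% with all mice. With mouse number added to the model as a block, Prph did not pass either (edgeR, log2 fold change 1.28, adjusted p = 0.0777). That fit called 2.53% of all genes higher.

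The promoter of Prph is printed because Prph was the gene that passed the test. The window runs from 250 bases before to 50 after the start of the gene as RefSeq places it on GRCm38.p6, and 4 of the 10 genes (Prph, Ina, Map1b and Basp1) were in the table used. Capitals mark matches to TATAAA and to GGGCGG, on either strand. These motifs do not overlap each other.
Prph, chr15:99054924-99055223, plus strand: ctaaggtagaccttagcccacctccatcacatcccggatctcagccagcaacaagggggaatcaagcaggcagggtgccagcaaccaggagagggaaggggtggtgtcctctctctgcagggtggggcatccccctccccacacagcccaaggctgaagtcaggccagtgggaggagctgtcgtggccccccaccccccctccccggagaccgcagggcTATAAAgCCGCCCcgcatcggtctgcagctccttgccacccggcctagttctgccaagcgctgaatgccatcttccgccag
The window of Prph held 1 TATAAA, starting 31 bases before the start, and 1 GGGCGG match, at a GC content of 64.7%. That of Ina held no TATAAA and 2 GGGCGG matches at 71.7% GC. Map1b had 1 TATAAA at 99 bases before the start and 2 GGGCGG matches, and Basp1 had 4 GGGCGG matches and no TATAAA. Among 32851 windows of this length, 13.6% held TATAAA and 35.7% held GGGCGG, and their median GC content was 52.7%. A match describes letters and is no evidence that a factor binds.

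None of the 3 neurofilament subunits passed the test. Nefl (chromosome 14, 68083863 to 68089095, plus strand) was at 1023, 951 and 1103 CPM in the controls and at 819, 1003 and 1018 CPM in the mutants, with overlapping groups. Its log2 fold change was -0.12 (SE 0.11, 95% interval -0.37 to 0.14, adjusted p = 0.505). Nefm (chromosome 14, 68082590 to 68124846, minus strand) was at 1564, 1079 and 1481 CPM in the controls and at 1112, 1468 and 1520 CPM in the mutants, so that the lowest value was in control mouse 2 and the next in mutant mouse 1. Its log2 fold change was -0.01 (SE 0.17, 95% interval -0.39 to 0.38, adjusted p = 0.979). Nefh, whose product is the subunit with the longest tail and comes latest in axon maturation, lies on the minus strand of chromosome 11 from 4938754 to 4948064. It was at 255, 170 and 285 CPM in the controls and at 243, 361 and 289 CPM in the mutants, and mutant mouse 1 fell within the control range. The log2 fold change was 0.33 (SE 0.20, 95% interval -0.13 to 0.79, adjusted p = 0.286). With single mice left out, the log2 fold change of Nefl ranged from -0.17 to -0.02 (without mutant mouse 1), and that of Nefh from 0.14 (without control mouse 2) to 0.49 (without control mouse 3). With the libraries scaled on 10 genes used by neurons of every kind (neuron-wide scaling), which raises most genes, that of Nefh was 0.57 (adjusted p = 0.0699).

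Ina, alpha-internexin, lies on the plus strand of chromosome 19 from 47014698 to 47025327. It was nearly level in the controls, at 534, 527 and 511 CPM, and was at 348, 326 and 546 CPM in the mutants. Mutant mice 1 and 2 were below all controls, and mutant mouse 3 was above them. The log2 fold change was -0.36 (SE 0.18, 95% interval -0.77 to 0.05, adjusted p = 0.193). Without mutant mouse 3 it was -0.63 (adjusted p = 0.00859), without mutant mouse 2 it was -0.23 (adjusted p = 0.449), and with neuron-wide scaling it was -0.14 (adjusted p = 0.617).

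**Figure D2:**
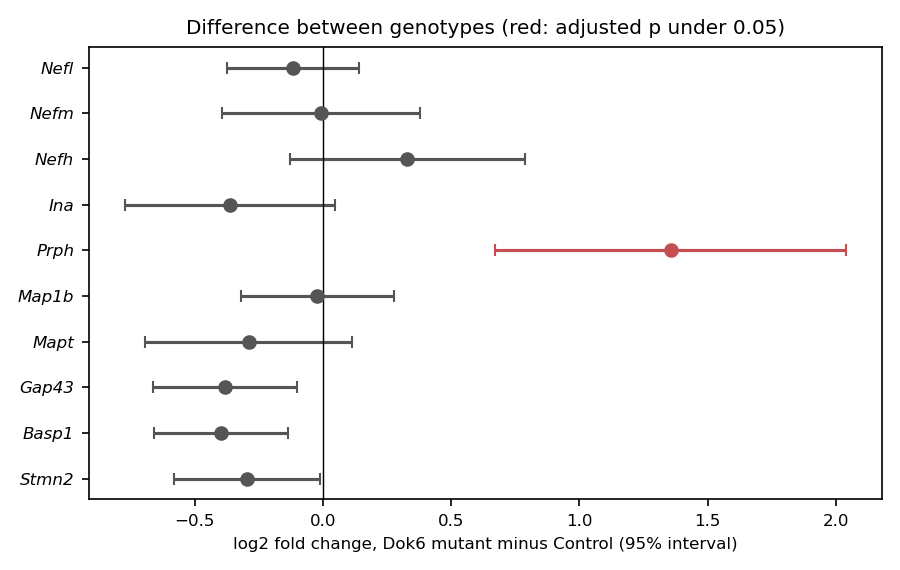
Log2 fold change of Dok6 mutant against Control (horizontal axis) for each of the 10 genes, with the 95% confidence interval of edgeR's quasi-likelihood test as the bar. Only Prph, in red at 1.36, passed the adjusted threshold, while the intervals of Gap43, Basp1 and Stmn2 lie below 0.

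Set against each other within a library, the 5 filament transcripts held a larger share of Prph in every mutant than in any control. Levels were divided for this by the length of all merged exons of each gene, as CPM per kilobase of length (RPKM). This was done because a longer transcript yields more reads. Prph made up 9.37%, 7.94% and 7.15% of the summed per-length level of the 5 genes in the controls and 13.1%, 22.0% and 21.4% in the mutants. Ina made up 18.6%, 22.2% and 18.03% in the controls and 15.5%, 10.6% and 16.5% in the mutants. The genotypes did not overlap for either gene. Since the shares of a library sum to 100%, a larger share of Prph lowers the others. With Prph left out of the sum, an alternative added after the data were seen, Ina made up 20.5%, 24.2% and 19.4% in the controls and 17.8%, 13.6% and 20.95% in the mutants, and the genotypes overlapped. In the same sum, Nefh made up 7.96%, 6.33% and 8.80% in the controls and 10.1%, 12.2% and 8.99% in the mutants, which did not overlap. The mean share of Nefl was 36.7% ± 2.21 in controls and 31.8% ± 2.82 in mutants, that of Nefm 28.5% ± 2.63 and 26.7% ± 1.02, and that of Nefh 7.07% ± 1.18 and 8.44% ± 1.25 (SD, n = 3 mice each), all with overlapping values when Prph is in the sum. With the length of the longest coding transcript in place of all merged exons, the share of Prph still did not overlap between the genotypes. Nefm then had the largest mean share, at 38.25% in controls and 35.95% in mutants, against 31.4% and 27.3% for Nefl.

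**Figure D3:**
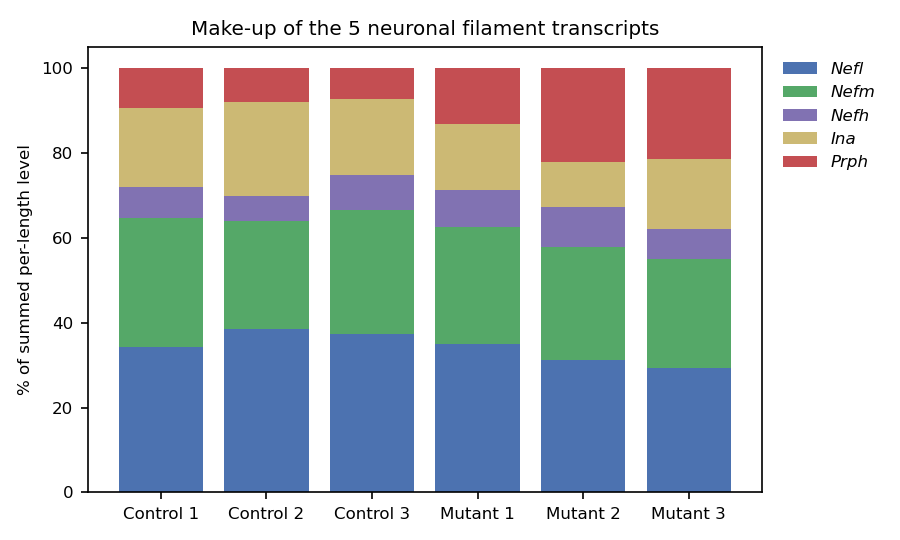
Share of each of the 5 filament genes in their summed per-length level (vertical axis, percent) in each of the 6 libraries. The red segment, Prph, widens from 7.15% to 9.37% in the controls to 13.1%, 22.0% and 21.4% in the mutants, and the other segments take up the rest of a fixed 100%.

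Ratios of 2 genes within a library do not depend on how libraries are scaled. The log2 ratio of Prph to Nefl was -1.87, -2.28 and -2.39 in the controls and -1.41, -0.50 and -0.45 in the mutants, a difference of 1.39 without overlap. The ratio of Nefh to Nefl was also higher in every mutant, at -1.995, -1.72 and -2.06 against -2.25, -2.72 and -2.19, a difference of 0.46. With 3 mice against 3, the exact two-sided permutation test cannot give a p under 0.1, and it gave 0.1 for each of these 2 ratios (0.3 when adjusted over the 6 ratios compared). Ina to Nefl differed by -0.28 (exact p = 0.3, adjusted 0.45), Nefm to Nefl by 0.12 (exact p = 0.6, adjusted 0.72), Mapt to Map1b by -0.27 (exact p = 0.3, adjusted 0.45) and Gap43 to Basp1 by 0.02 (exact p = 0.9, adjusted 0.9), each with overlapping groups. With single mice left out, these differences were unstable. Ina to Nefl ranged from -0.46 (without mutant mouse 3) to -0.098 (without mutant mouse 2), Nefm to Nefl from 0.0047 (without control mouse 2) to 0.22 (without control mouse 1), and Mapt to Map1b from -0.40 (without control mouse 3) to -0.18 (without control mouse 2). Nefh to Nefl ranged from 0.30 (without control mouse 2) to 0.56 (without control mouse 3), and Prph to Nefl from 1.22 to 1.70.

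Of the genes for microtubule- and tubulin-binding proteins, 0 of 3 passed, and Stmn2 was lower at an unadjusted p under 0.05. Map1b (chromosome 13, 99421446 to 99516540, minus strand), the MAP of growing axons, was at 2535, 2415 and 2577 CPM in the controls and at 2152, 2304 and 2953 CPM in the mutants. The mutants thus lay on both sides of the narrow control range. Its log2 fold change was -0.02 (SE 0.13, 95% interval -0.32 to 0.28, adjusted p = 0.923). Mapt (chromosome 11, 104231390 to 104332090, plus strand), which encodes tau, was at 2061, 2137 and 1664 CPM in the controls and at 1451, 1304 and 2043 CPM in the mutants. Mutant mice 1 and 2 were below all controls, as for Ina, and mutant mouse 3 was within the control range. The log2 fold change was -0.29 (SE 0.18, 95% interval -0.69 to 0.11, adjusted p = 0.288), which was -0.50 without mutant mouse 3 (adjusted p = 0.0341), -0.16 without mutant mouse 2 (adjusted p = 0.603) and -0.07 with neuron-wide scaling (adjusted p = 0.825). Stmn2 (chromosome 3, 8509360 to 8561606, plus strand), stathmin-2, was at 1215, 1480 and 1504 CPM in the controls and at 1026, 1104 and 1286 CPM in the mutants. Only mutant mouse 3 reached into the control range. Its log2 fold change was -0.30 (SE 0.12, 95% interval -0.58 to -0.01, adjusted p = 0.134).

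The genes for the membrane-bound proteins of the axon tip, Gap43 and Basp1, were lower in all 3 mutants without passing the adjusted threshold. Gap43 (chromosome 16, 42248442 to 42340651, minus strand), a protein kinase C substrate of the growing axon tip, was at 747, 847 and 902 CPM in the controls and at 598, 576 and 741 CPM in the mutants. Mutant mouse 3 was just below control mouse 1. The means were 832 ± 78.9 and 639 ± 89.6 CPM (SD, n = 3 mice each), a log2 fold change of -0.38 (SE 0.12, 95% interval -0.66 to -0.10, adjusted p = 0.0687). Basp1 (chromosome 15, 25363277 to 25413764, minus strand), which encodes a GAP43-like protein under the membrane, was at 1264, 1389 and 1279 CPM in the controls and at 967, 877 and 1138 CPM in the mutants. The means were 1310 ± 68.2 and 994 ± 133 CPM (SD, n = 3 mice each), a log2 fold change of -0.40 (SE 0.11, 95% interval -0.66 to -0.14, adjusted p = 0.0507). Mutant mouse 3 was again the highest of the mutants. Without that mouse, the log2 fold change was -0.51 for Basp1 (adjusted p = 0.0173) and -0.50 for Gap43 (adjusted p = 0.0214). Basp1 passed the threshold in 5 of 14 alternative fits and Gap43 in 3 of 14, at adjusted p-values from 0.00493 to 0.368 and from 0.0144 to 0.387.

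Across the 10 genes, 2 log2 fold changes were positive and 8 negative, with a median of -0.20 against 0.01 for all genes tested, but the split was 5 and 5 and the median 0.03 with neuron-wide scaling. That scaling moved the median of all genes to 0.25. Before adjustment, 3 of the 10 (Gap43, Basp1 and Stmn2) were lower at p under 0.05, against 15.5% of all genes. In 2 of the 10 every mutant was below every control, against 18.7% of all genes, and in 1 of the 10, Prph, every mutant was above every control, against 19.6% of all genes. The 10 genes together took 1.12%, 1.09% and 1.11% of all counts in the control libraries and 0.919%, 0.983% and 1.22% in mutant mice 1, 2 and 3. Mutant mouse 3 therefore had the largest share of the 6 libraries and mutant mouse 1 the smallest. Counting error is small beside this, since the counts of the 10 genes ran from 2024 to 55725 per library, or 2.22% to 0.424% of the value.

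In the controls, Basp1 had the highest level per length of the 10 genes, at 652 ± 34.0 RPKM, and Gap43 followed at 546 ± 51.8 RPKM (SD, n = 3 mice each), with no overlap between them. Nefl (304 RPKM), Mapt (259), Stmn2 (250) and Nefm (238) came next, and neighbours in this run overlapped in their values. Ina (162) and Map1b (158) overlapped each other and lay below Nefm. Prph (67.8) and Nefh (59.3) overlapped each other and lay below all others. In the mutants Basp1, Gap43 and Nefl kept the first 3 places, at 495, 419 and 280 RPKM, Nefh stayed last at 74.5 RPKM, and Prph stood 7th at 173.5 RPKM, with 91.3, 209 and 220 RPKM in mutant mice 1, 2 and 3. The order rests on the length assigned to each gene. With the length of the longest coding transcript, a choice made after the data were seen, the control order was Basp1, Stmn2, Gap43, Nefm, Mapt, Nefl, Map1b, Ina, Prph and Nefh, so that Nefl moved from the third to the sixth place and the order given for the mutants rests on the length choice as well. Stmn2 moved from the fifth to the second place at 675 RPKM, since its annotated exons span 5602 bases and that transcript 2073.

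Prph was the gene with the widest range over the 6 libraries, 1.92 on the log2 CPM scale, and Nefh the next at 1.08. The other 8 ranged over 0.43 to 0.74. The 3 genes whose profile over the 6 libraries was most like that of Prph, by the root mean square difference of centred log2 CPM among 10671 genes with a mean of at least 10 CPM, were Abca8b (0.10), Ngfr (0.11) and Dgkh (0.18). Ngfr, the p75 neurotrophin receptor, was at 85.2, 53.6 and 49.6 CPM in the controls and at 82.8, 189 and 207 CPM in the mutants, low in mutant mouse 1 as Prph was. It is also on the list of Schwann cell genes. Those most like Nefh were Foxm1 (0.071), Bin3 (0.12) and Tmem176a (0.13), and all 3 overlapped between the genotypes.

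Markers of other cells moved with Prph. The 13 dorsal root ganglion (DRG) neuron genes in the table summed to between 115 and 134 CPM in the controls and to 279, 745 and 665 CPM in mutant mice 1, 2 and 3, and 11 of the 13 rose. Among the defining ones, the sodium channel gene Scn10a was at 3.10, 2.92 and 1.20 CPM in the controls and at 46.0, 167 and 133 CPM in the mutants. The receptor gene Mrgprd was at 0, 0.115 and 0.057 CPM in the controls and at 4.88, 17.4 and 8.43 CPM in the mutants. The Schwann cell sum was 247, 1486 and 388 CPM in the mutants, with 8 of 10 genes higher, and the skeletal muscle sum was 602, 314 and 110 CPM against 12.6 to 21.4 CPM, with 7 of 7 tested genes higher. Among the mutants, mouse 1 was the lowest in Prph and in the DRG neuron and Schwann cell sums, and the highest in the skeletal muscle sum. Prph was highest in mouse 3, and the DRG neuron and Schwann cell sums were highest in mouse 2. The fibroblast sum was 284 to 878 CPM in the controls and 1508 to 2478 CPM in the mutants, with 4 of 6 genes higher. The 6 motor neuron genes, whose cells also express peripherin, summed to 109 to 142 CPM in the controls and to 107, 130 and 112 CPM in the mutants, with overlapping groups and 1 gene lower. Isl1 is on both neuron lists. The part of any of these cells in the difference in Prph was not tested.

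**Figure D4:**
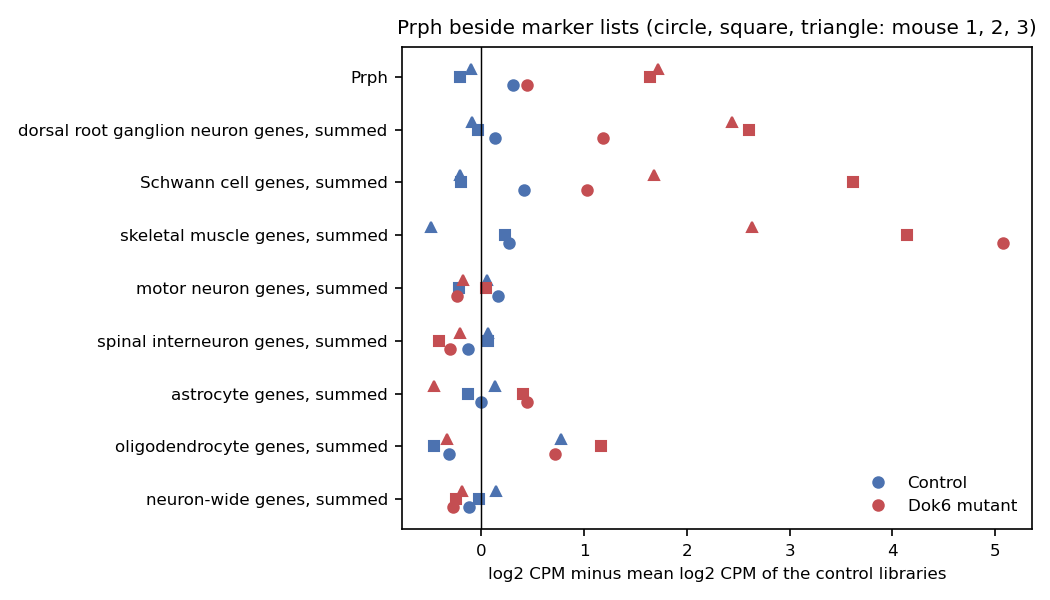
Log2 CPM of Prph and of the summed genes of 8 marker lists in each library, less the mean log2 CPM of the 3 Control libraries (horizontal axis), with Control in blue and Dok6 mutant in red. Prph and the DRG neuron and Schwann cell sums are each lowest among the mutants in mouse 1 (circle), whereas the motor neuron sums of the genotypes overlap.

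Markers of central neurons and glia were read beside the same genes. The 10 genes used by neurons of every kind, such as the synaptic genes Snap25 and Syn1, summed to 5412, 5784 and 6494 CPM in the controls and to 4866, 4940 and 5160 CPM in the mutants, without overlap. Of these 10 genes, 0 passed the adjusted threshold in edgeR, where 3 were lower and 1 higher at an unadjusted p under 0.05, and DESeq2 called 3 lower and 1 higher. The 9 spinal interneuron genes summed to 1119, 1045 and 1203 CPM in the mutants, below the controls. Of these 9 genes, 2 were lower at the adjusted threshold in edgeR, 7 at an unadjusted p under 0.05, and 5 by DESeq2. Scaled on the neuron-wide genes, the log2 fold changes were -0.14 for Gap43 (adjusted p = 0.387), -0.17 for Basp1 (adjusted p = 0.368), -0.06 for Stmn2 (adjusted p = 0.740) and 1.57 for Prph (adjusted p = 0.0113). This scaling moved every one of these values up by about as much as the median of all genes, which went from 0.01 to 0.25. The shift itself was therefore not particular to these genes. Prph was the only one of the 10 called under it, and 18.3% of all genes were called higher. Astrocyte genes summed to 4040, 3920 and 2150 CPM in the mutants, and oligodendrocyte genes to 480, 653 and 232 CPM against 213 to 500 CPM in the controls. In both, mutant mouse 3 was the lowest of the mutants, and this was the mouse in which 9 of the 10 genes, all except Nefh, were highest among the mutants. The part of these cells in those values was not tested.

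Genes whose products work with these proteins were read from 3 lists. Of 65 such genes tested, 6 (9.23%) were higher and 5 (7.69%) lower, near the 8.62% and 6.01% over all genes, with a median log2 fold change of -0.11. Scaled on neuron-wide genes, 14 were higher and 0 lower, and over all genes 18.3% were higher and 0.597% lower under that scaling. The counts also depended on single mice. Without control mouse 2, 1 was higher and 0 lower, in a fit that called only 0.318% of all genes higher and 0.0682% lower. The count of lower genes was 2 without control mouse 1 or 3, 0 without mutant mouse 1 or 2, and 18 without mutant mouse 3. Over all genes, 3.58% and 3.53% were lower without control mouse 1 or 3. The shares were 1.11% and 1.0% without mutant mouse 1 or 2, and 7.08% without mutant mouse 3.

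Of the 11 genes for other intermediate filaments, filament linkers and kinases, 3 rose (27.3%) and 8 did not pass, and the median was 0.36. Nes, nestin of progenitor cells, was at 32.4, 24.6 and 23.1 CPM in the controls and at 45.1, 70.1 and 53.3 CPM in the mutants (log2 fold change 1.07, SE 0.19, adjusted p = 0.0136). Synm, synemin, rose by a log2 fold change of 0.96 (SE 0.18, adjusted p = 0.0153), and Plec, plectin, which links filaments to other structures, by 0.74 (SE 0.16, adjusted p = 0.0238). Nestin, synemin and plectin are also made by muscle and glial cells. Of those at the highest levels that did not pass, Macf1 had a log2 fold change of 0.08, Dst of 0.43 (adjusted p = 0.0704) and Gfap, the filament of astrocytes, of 0.36, with 538, 555 and 189 CPM in the mutants.

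Of 34 tubulin and microtubule genes, 1 rose (2.94%) and 3 fell (8.82%), with a median of -0.17. Tubb2a, a neuronal beta-tubulin, was at 1286, 1426 and 1501 CPM in the controls and at 1026, 994 and 1126 CPM in the mutants (log2 fold change -0.42, SE 0.10, adjusted p = 0.0295). Spast, the severing enzyme spastin, fell by 0.37 (SE 0.10, adjusted p = 0.0414) and Mapre1, the plus-end protein EB1, by 0.26 (SE 0.07, adjusted p = 0.0479) on the log2 scale. Tppp3, a tubulin polymerization-promoting protein, rose from 67.2 ± 8.43 to 125 ± 27.3 CPM (SD, n = 3 mice each; log2 fold change 0.89, adjusted p = 0.0151). The most abundant ones that did not pass were Tuba1a (-0.31, adjusted p = 0.1002), Tubb5 (-0.26, adjusted p = 0.146) and Tubb2b (-0.30, adjusted p = 0.116).

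Of 20 growth cone and actin genes tested, 2 rose and 2 fell (10% each), with a median of -0.07. The profilins, which bind actin monomers, moved apart. Pfn2, the neuronal form, was at 581, 677 and 703 CPM in the controls and at 499, 504 and 501 CPM in the mutants (log2 fold change -0.38, SE 0.09, adjusted p = 0.0330), and Pfn1, the widely expressed form, was at 116, 112 and 115 CPM in the controls and at 149, 142 and 146 CPM in the mutants (0.35, SE 0.07, adjusted p = 0.0169). Marcksl1, a relative of Marcks, fell by 0.41 (SE 0.10, adjusted p = 0.0282) on the log2 scale, whereas Marcks had a log2 fold change of -0.08 (adjusted p = 0.575). Vasp, which promotes actin filament growth, rose from 22.3 ± 2.12 to 43.9 ± 4.71 CPM (SD, n = 3 mice each), a log2 fold change of 0.98 (SE 0.12, adjusted p = 0.00665). Cfl1 (-0.19, adjusted p = 0.166) and Uchl1 (-0.05, adjusted p = 0.776) did not pass.

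**Figure D5:**
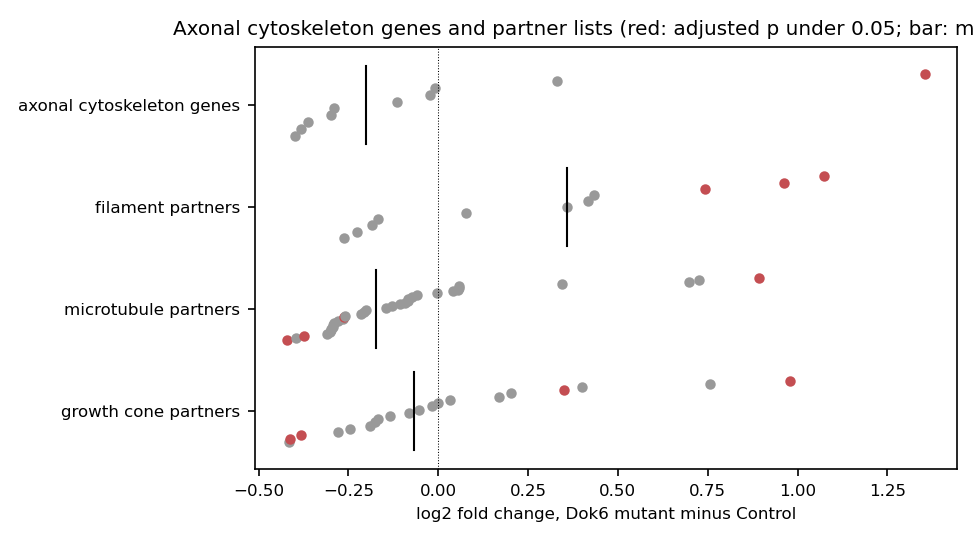
Log2 fold change of Dok6 mutant against Control (horizontal axis) for each gene of the 10 axonal cytoskeleton genes and the 3 partner lists, with genes of adjusted p under 0.05 in red and the median of each list as a bar. The medians are -0.20, 0.36, -0.17 and -0.07 from top to bottom.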

How the data were processed

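Total RNA of 3 Control and 3 Dok6 mutant mice was sequenced, and the authors deposited whole-number counts per gene, not normalized, in 1 table with a length for each gene. The submitters' processing notes name the build mm10. The aligner and counter are not given in the sources used here. The labels name the NEBNext Ultra kit and the methods its Directional version. The length column equals the merged exons of GENCODE M21 (GRCm38) for all 10 genes described.

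Columns were matched to samples by genotype and mouse number. The genotypes were compared with edgeR 4.0.16 under R 4.3.3 (filterByExpr with a minimum of 10 counts, TMM, glmQLFit and glmQLFTest on genotype alone, two-sided, all 6 libraries), and adjusted by Benjamini-Hochberg over 17099 genes. The procedure was also run on simulated counts with known changes, and the outcome is not given here. CPM and RPKM use TMM-scaled sizes. Standard errors come from the F statistic. Ratios were tested by exact permutation (scipy 1.17.1). Near-identical transcripts were sought at 95% identity over 200 bases.

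The members, partner lists and markers were chosen with earlier results of these data known. Named besides the members were, per partner list, up to 4 changed genes in each direction and the 3 most abundant others, and for members ranging over more than 1 log2 unit the 3 genes most alike. One DRG marker was not analysed here, and 1 Schwann cell marker is not reported here. Alternatives were RLE, upper-quartile and neuron-wide scaling, no filter, 10 counts in every library, DESeq2 1.42.0, limma 3.58.1 voom, a replicate block, the fold threshold of 2, other lengths, and leaving out each mouse.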

Additional observations from a re-analysis of the deposited data

How the results depend on the processing

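Of 140 values, the 10 genes under 14 alternatives each, 117 kept their direction and their side of the threshold. Prph kept its direction in all 14, at log2 fold changes from 1.15 to 1.66, and passed in 10. Scaled on neuron-wide genes, Nefl, Nefm and Map1b turned to 0.12, 0.22 and 0.21, as that scaling moved the median of all genes from 0.01 to 0.25, and with 10 counts asked for in every library Nefm turned to 0.00087. With single mice left out, Nefm ranged from -0.16 to 0.12, Map1b from -0.172 to 0.0672 and the log2 ratio of Gap43 to Basp1 from -0.031 to 0.097, and the cause was not tested.

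The count of the 10 genes called higher was 1, and it was 0 with the fold threshold and 0 to 1 with single mice left out. The count called lower was 0 in edgeR, beside 3 at an unadjusted p under 0.05. It was 1 with RLE, 1 with limma voom, 2 without the filter, 2 with DESeq2 and 0 to 4 with single mice left out. Over all genes, 6.58% were lower with RLE, 6.02% with limma voom, 3.66% without the filter and 8.95% with DESeq2. The fit without mutant mouse 3, in which 4 of the 10 were lower, called 7.08% of all genes lower. Of the partner genes, 6 were higher, against 14 with neuron-wide scaling, 12 without the filter and 1 to 8 with single mice left out. Lower were 5, against 0 with neuron-wide scaling, 11 with DESeq2 and 0 to 18 with single mice left out. Over all genes, 18.3% were higher and 0.597% lower with neuron-wide scaling, 6.08% higher without the filter and 8.95% lower with DESeq2. With single mice left out, 0.318% to 9.59% of all genes were higher and 0.0682% to 7.08% lower. Per length in the controls, the longest coding transcript gave 373.5 RPKM for Nefm, 212.5 for Map1b, 372 for Mapt, 706 for Basp1 and 675 for Stmn2.

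The labels do not say what a mouse number stands for. The correlations of deviations from the group means were -0.0074, -0.19 and -0.27 for same-numbered mice and ranged from -0.082 to 0.25 for the other pairs, and no mouse correlated best with its own number, so the numbers were not taken to pair the mice. With the replicate block, Prph had a log2 fold change of 1.28 (edgeR, adjusted p = 0.0777). With it, 0 of the 10 genes were called higher, no other call among the 10 changed, and 4 partner genes were higher and 0 lower. Over all genes, 2.53% were higher and 0.76% lower with the block, against 8.62% and 6.01% without it.

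Counts were high for all 10 genes, so the number of mice and the spread between them limit the intervals more than depth does.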
